A study of Mus musculus with 2 samples.

Results

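The cells described here are endothelial cells of the mouse aorta that carry transcripts of Adra2a, Coch, Sost, Tbx1 and Foxf2. They were 953 of the 3581 endothelial barcodes of the series, which holds 4774 barcodes. A barcode was called endothelial when it held at least 4 of the 8 transcripts Pecam1, Cdh5, Tie1, Egfl7, Cldn5, Ecscr, Esam and Eng, more of these than of 8 fibroblast transcripts, and fewer than 2 of the smooth muscle transcripts Myh11, Cnn1 and Lmod1. Each endothelial barcode received a score, the unique molecular identifiers (UMIs, each standing for 1 captured transcript) of the 5 genes per 10000 UMIs of that barcode. Barcodes with a score of 5 or more are the members, called Coch-Sost-Adra2a endothelium below, and endothelial barcodes with a score of 3 or less are the comparison endothelium. The members were chosen by measured values, so their levels against the comparison endothelium are a description and carry no test.

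The series holds 2 single-cell libraries from C57BL6/J mice, 1 young at 8 weeks and 1 old at 18 months. No transgene or treatment is named in the labels. The outer layer of the aorta was dissected off, and the luminal surface was loosened with trypsin, scraped and captured in droplets with a kit that reads the 3′ ends of transcripts. The title sets young against old aortic endothelium. With 1 library per age, age, animal and preparation cannot be told apart, so ratios are given with counting intervals and no p-value.

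Endothelium lines the vessel wall, senses flow and signals to the smooth muscle beneath it, and its cells differ along and around the aorta. Adra2a encodes the alpha-2A adrenergic receptor, which answers noradrenaline through inhibitory G proteins. Coch encodes cochlin, a secreted matrix protein best known from the inner ear. Sost encodes sclerostin, a secreted antagonist that binds Wnt co-receptors and is best known from osteocytes. Tbx1 encodes a T-box transcription factor needed for the pharyngeal arches and great vessels, and Foxf2 encodes a forkhead transcription factor.

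The promoters of the 5 genes were searched for the core letters of the T-box and forkhead families, because Tbx1 and Foxf2 are among the genes that choose the members. Promoters run from 250 bases before to 50 bases after each start in RefSeq (GRCm38.p6), and both strands were searched. GGTGTG, the T-box core, was present in 19.05% of 32851 such promoters and in 2 of the 6 promoters of the 5 genes. These were the promoters of Coch (chr12:51593091-51593390, plus strand) and Sost (chr11:101966966-101967265, minus strand). Among the other genes searched it was in a promoter of Adgrg1 and of Fbln5 (chr12:101819070-101819369, minus strand), which stood high in the members, and of Frzb, which stood low. The other promoter of Adgrg1 and that of Fbln5 did not hold it. It was also absent from the promoters of Mylk, Pcdh7, Col8a1 and Igf2, which stood high, and of Isl1 and Bcan, which stood low. GTAAACA, the forkhead core, was present in 3.65% of promoters and in 0 of the 6. A match describes the letters only. The matching promoters of Coch, Sost and Fbln5 are shown 5′ to 3′, with GGTGTG or its reverse complement in capitals.
Coch: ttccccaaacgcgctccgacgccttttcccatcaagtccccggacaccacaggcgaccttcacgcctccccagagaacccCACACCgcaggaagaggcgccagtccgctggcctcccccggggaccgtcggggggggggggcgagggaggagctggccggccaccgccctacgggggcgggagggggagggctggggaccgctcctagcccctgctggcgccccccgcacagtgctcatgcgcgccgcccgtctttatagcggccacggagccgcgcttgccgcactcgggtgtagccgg
Sost: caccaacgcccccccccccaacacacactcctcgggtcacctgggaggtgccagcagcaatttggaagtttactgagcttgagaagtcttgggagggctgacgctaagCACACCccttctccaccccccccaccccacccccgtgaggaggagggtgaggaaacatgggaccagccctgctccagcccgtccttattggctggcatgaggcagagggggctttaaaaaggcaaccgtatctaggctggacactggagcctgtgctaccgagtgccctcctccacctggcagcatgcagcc
Fbln5: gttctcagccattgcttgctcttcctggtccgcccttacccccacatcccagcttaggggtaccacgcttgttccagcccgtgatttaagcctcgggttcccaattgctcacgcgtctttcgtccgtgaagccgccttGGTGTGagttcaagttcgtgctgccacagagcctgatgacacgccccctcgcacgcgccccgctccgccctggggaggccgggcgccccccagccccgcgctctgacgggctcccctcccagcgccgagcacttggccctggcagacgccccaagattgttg

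Depth differed between the libraries and between the groups of cells. The young library held 12576023 UMIs in 1366 barcodes and the old library 19171045 UMIs in 3408 barcodes. Barcodes with under 200 genes or over 10% mitochondrial UMIs were left out, and 1108 young and 2473 old endothelial barcodes remained. Members held a median of 8764.5 UMIs in young and 5605 in old, against 6807 and 4991 in the comparison endothelium. Shares of cells with a transcript are therefore given after thinning each cell to 3000 UMIs, which left out 27 of 432 young and 87 of 521 old members and 51 of 570 young and 351 of 1673 old comparison barcodes. Both libraries contained 11 of the same barcode sequences, of which 5 were young members and 0 were old members.

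Coch-Sost-Adra2a endothelium was a larger share of the young than of the old endothelial barcodes. Members were 432 of 1108 endothelial barcodes in young (38.99%, exact Clopper-Pearson 95% interval 36.1 to 41.9%). They were 521 of 2473 in old (21.1%, interval 19.5 to 22.7%). At 3000 UMIs per cell the cells were classed again, with 385 members of 1006 endothelial barcodes in young and 450 of 1930 in old. The shares were then 38.3% (35.3 to 41.4%) and 23.3% (21.4 to 25.3%), and the intervals of the libraries did not overlap at either depth. These intervals cover counting error only, not the difference between animals or scrapings. Outside the endothelial class, 2 of 257 young and 22 of 863 old barcodes reached a score of 5.

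The score ran on without a gap at the threshold. In young, 42 barcodes scored from 4 to under 5 and 42 from 5 to under 6, and in old these numbers were 112 and 79. A score of 0 was held by 358 young and 1146 old endothelial barcodes. The class is therefore a range of the score, and 106 young and 279 old barcodes between the thresholds entered neither group. Just below the threshold Fbln5 was at 1492 counts per 1000000 UMIs of the group (CPM) in young, and just above it at 1544 CPM. In old the levels were 575 and 917 CPM. Isl1 was at 80.9 and 127 CPM just below and at 41.9 and 111 CPM just above.

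**Figure D1:**
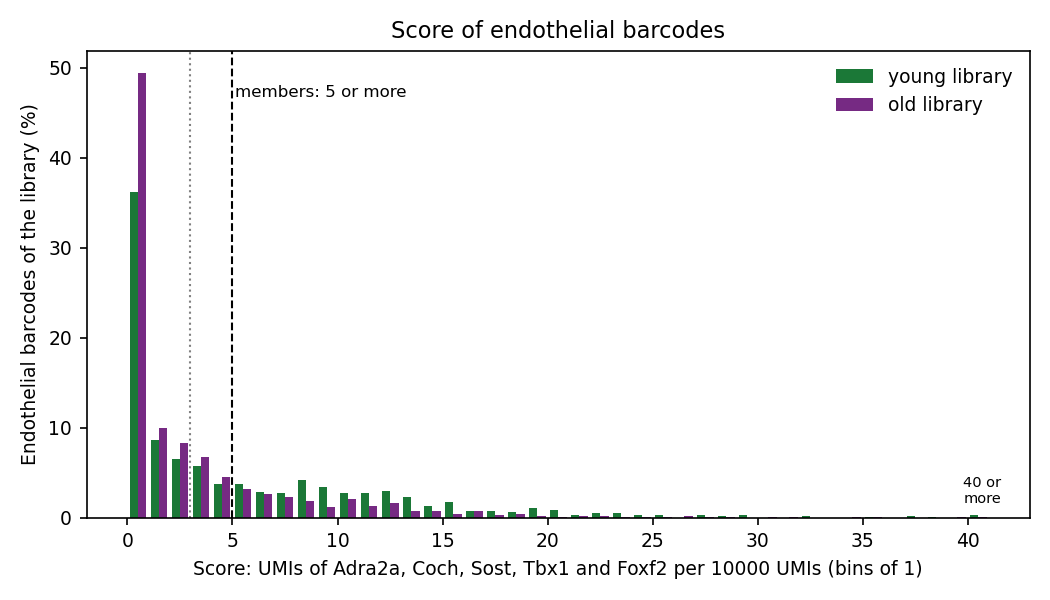
Share of the endothelial barcodes of each library (vertical axis, percent) by score in bins of 1 (horizontal axis, UMIs of the 5 genes per 10000 UMIs; the last bin holds 40 or more). The dashed line marks the member threshold of 5 and the dotted line the comparison threshold of 3; the distribution runs across both lines without a gap.

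The 5 score genes were found together in some of the members. In young, 49 members held 1 of the 5 genes, 114 held 2, 119 held 3, 95 held 4 and 55 held all 5. In old these numbers were 104, 187, 132, 80 and 18; the old cells are also the shallower. Adra2a gave 48.02% of the score UMIs in young and 53.04% in old, so the rule leans most on this gene. Coch gave 25.5% of the score UMIs in young and 21.3% in old, and Foxf2 2.55% of the score UMIs in young and 2.64% in old. Shallow cells could pass on little evidence: 20 old and 0 young members rested on 1 score UMI, and 71 old and 22 young members on 2.

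Levels of the score genes describe the choice of cells. Adra2a (chromosome 19, 54044151 to 54048982, GRCm38) had 595 and 564 CPM in members, against 41.8 and 41.9 CPM in the comparison endothelium of the young and old library. Coch (chromosome 12, 51593341 to 51605771) had 316 and 227 CPM in members, against 17.7 and 11.3 CPM. Sost (chromosome 11, 101962458 to 101967015) had 203 and 152 CPM in members, against 11.9 and 12.7 CPM. All 3 genes were far above the comparison endothelium in both libraries, as the rule requires. Tbx1 (chromosome 16, 18580979 to 18590671) had 93.5 and 92.8 CPM in members, against 6.66 and 5.80 CPM. Foxf2 (chromosome 13, 31625816 to 31631403) had 31.5 and 28.1 CPM in members, against 0.832 and 1.12 CPM, the latter from 4 and 11 UMIs. At 3000 UMIs Adra2a was detected in 78.3% of young and 79.95% of old members and in 10.98% and 11.9% of the comparison endothelium. It was also detected in 4.46% and 5.84% of barcodes with fibroblast markers, and the part of free RNA in these shares was not tested. The median depth of barcodes with fibroblast markers before thinning was 8408 and 4808 UMIs.

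Each score gene was also read in cells chosen by the other 4 alone. The 212 young and 208 old cells chosen without Adra2a still held more of it than the cells at 3 or less, by a log2 ratio of 1.32 (1.2 to 1.43) in young and 1.73 (1.59 to 1.86) in old. The log2 ratio was 2.89 and 2.87 for Coch, 2.69 and 2.51 for Sost, 2.65 and 2.68 for Tbx1 and 4.16 and 3.65 for Foxf2. Each of the 5 transcripts was thus higher in cells chosen by the others, all read from the same libraries. The 5 genes were put together with earlier results of these data known, so this describes the choice and is no independent support.

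The 8 endothelial transcripts, like the smooth muscle and fibroblast ones, belong to the rule, so their levels describe the choice of cells and do not check the label. Of genes outside the rule, the arterial and Notch list summed to 3739 and 3053 CPM in members, 3370 and 2798 CPM in the comparison endothelium, and 1097 and 1115 CPM in barcodes with fibroblast markers. The summed level of the 8 endothelial transcripts was 8286 CPM in young and 8451 CPM in old members, 8177 and 7839 CPM in the comparison endothelium, and 528 and 865 CPM in barcodes with fibroblast markers. Pecam1, an adhesion molecule of endothelial junctions, had 3496 and 3339 CPM in members, against 3945 and 3378 CPM. Of the 8, Cldn5, the endothelial claudin of tight junctions, was past 1.5-fold in both libraries, with 1158 and 1359 CPM in members, against 715 and 756 CPM. Of the 3 smooth muscle transcripts of the rule, Myh11 had 0 UMIs in young and 13 in old members, and Cnn1 had 0 and 3. At least 1 of the 3 was found in 43 of 432 young and 37 of 521 old members. The comparison endothelium had 30 of 570 and 160 of 1673 such barcodes. The 7 listed smooth muscle markers summed to 293 and 330 CPM in members and 261 and 335 CPM in the comparison endothelium. They summed to 18.1 and 60.9 CPM in barcodes with fibroblast markers. The 8 fibroblast transcripts summed to 386 and 406 CPM in members, 479.7 and 494 CPM in the comparison endothelium, and 25798 and 15523 CPM in barcodes with fibroblast markers. At least 1 of them was found in 387 of 432 young and 433 of 521 old members. In the comparison endothelium these were 498 of 570 and 1285 of 1673. Values given below for barcodes with no smooth muscle or fibroblast marker thus rest on the small remainder.

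Across 9989 genes with at least 100 UMIs over both groups and libraries, the score genes left out, 165 were at least 1.5-fold higher in members in both libraries (1.65%) and 273 at least 1.5-fold lower (2.73%). In young alone these were 391 (3.91%) and 619 (6.2%), and in old alone 328 (3.28%) and 471 (4.72%). Below, "higher" and "lower" of members mean past 1.5-fold in both libraries, a pair of ratios gives young and then old, and ratios are log2 of members over comparison endothelium. Over all genes with at least 20 UMIs in each library the median ratio was -0.03 in young and 0.00 in old.

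Fbln5 and Eln, which encode fibulin-5 and elastin of the elastic fibre, were higher in the members. Fbln5 (chromosome 12, 101746565 to 101819055), with 1 promoter printed above, had 2416 and 1256 CPM in members, against 739.9 and 362 CPM in the comparison endothelium. Its ratio was 1.71 (1.65 to 1.76) in young and 1.79 (1.73 to 1.86) in old. At 3000 UMIs, 95.8% of young and 88.2% of old members held a Fbln5 transcript, against 76.3% and 54.1% of the comparison endothelium and 75.00% and 65.2% of barcodes with fibroblast markers. Eln had 2968 against 1512 CPM in young and 1385 against 665 CPM in old, a ratio of 0.97 and 1.06. They were the 2 higher genes among 19 measured of 23 listed elastic fibre genes, with 0 lower and a median of -0.10 and -0.20. Over all 10819 genes measured in the same way, 2.01% were higher and 3.44% lower. The old median was 0.349 among barcodes with no smooth muscle or fibroblast marker. The other measured elastic fibre genes were not past 1.5-fold in both libraries.

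The 16 genes with the highest ratios by the fixed ranking were, in order, Elovl4, Mylk, Tcf4, Pcdh7, Fbln5, Igf2, Adgrg1, Fign, Col8a1, Cp, Adgra2, Cyp4b1, Serpinf1, Uaca, Stmn2 and Kank4. Elovl4, which encodes an elongase of very long chain fatty acids, was rare, with 47 against 2 UMIs in young and 46 against 19 in old. Mylk, which encodes the myosin light chain kinase of contraction, had 119.8 against 16.02 CPM in young and 88.9 against 20.2 CPM in old. Its ratio was 2.90 (2.56 to 3.27) in young and 2.14 (1.87 to 2.40) in old. Most other contractile genes did not share this: of 21 measured of 24 listed contractile and cytoskeletal genes 3 were higher (Mylk, Myh10 and Cnn3) and 0 lower, with a median of 0.29 and 0.11. Myh10, a nonmuscle myosin heavy chain, had a ratio of 0.88 and 0.71.

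Transcription factor and adhesion genes followed in the ranking. Tcf4, a basic helix-loop-helix factor, had 167 against 36.8 CPM in young and 158 against 38.04 CPM in old (ratio 2.18 and 2.05). Pcdh7, a protocadherin, had 40.6 against 8.11 CPM in young and 31.6 against 6.92 CPM in old (2.32 and 2.19). The adhesion G protein-coupled receptors Adgrg1 and Adgra2 had ratios of 1.71 and 1.81, and of 2.10 and 1.76. No counting interval of the 16 genes reached 0 in either library, which the ranking by interval bounds selects for. Cyp4b1, a cytochrome P450, had 269 against 104 CPM in young and 266 against 89.1 CPM in old. Stmn2, a microtubule regulator best known from neurons, had 522 against 214 CPM in young and 508 against 164 CPM in old.

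Secreted proteins were also among the 16. Cp, which encodes the copper protein ceruloplasmin, had 451 against 164 CPM in young and 466 against 165 CPM in old. Col8a1, a short-chain collagen, had 85.1 against 27.5 CPM in young and 83.9 against 20.6 CPM in old. Igf2, the gene of insulin-like growth factor 2, had 61.8 against 14.98 CPM in young and 108 against 30.5 CPM in old, but 64.7% of the stretches near its 3′ end also occur in the gene model Gm49394, so its value is uncertain. Serpinf1, an antiangiogenic serpin, is 1 of the 8 fibroblast transcripts of the rule: it had 152 against 48.9 CPM in young and 140.0 against 53.2 CPM in old, and 1692 and 882 CPM in barcodes with fibroblast markers. Other fibroblast transcripts went the other way. Dcn, the decorin gene, was lower in members (-1.04 and -0.94), as were Col1a2 (-1.02 and -0.77) and Lum (-0.64 and -1.13), so of 7 measured of 8 listed fibroblast markers 1 was higher and 3 were lower, with a median of -0.64 and -0.45. Uaca and Kank4 had ratios from 1.38 to 1.72, and Kank4 turned to -0.54 in young among barcodes with no smooth muscle or fibroblast marker. That setting leaves out most young members. Fign, with 14.2 against 1.87 CPM in young and 9.45 against 2.03 CPM in old, is marked as possible free RNA, as is Serpinf1, because its level in barcodes of another type passed 3 times its endothelial level in a library.

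**Figure D2:**
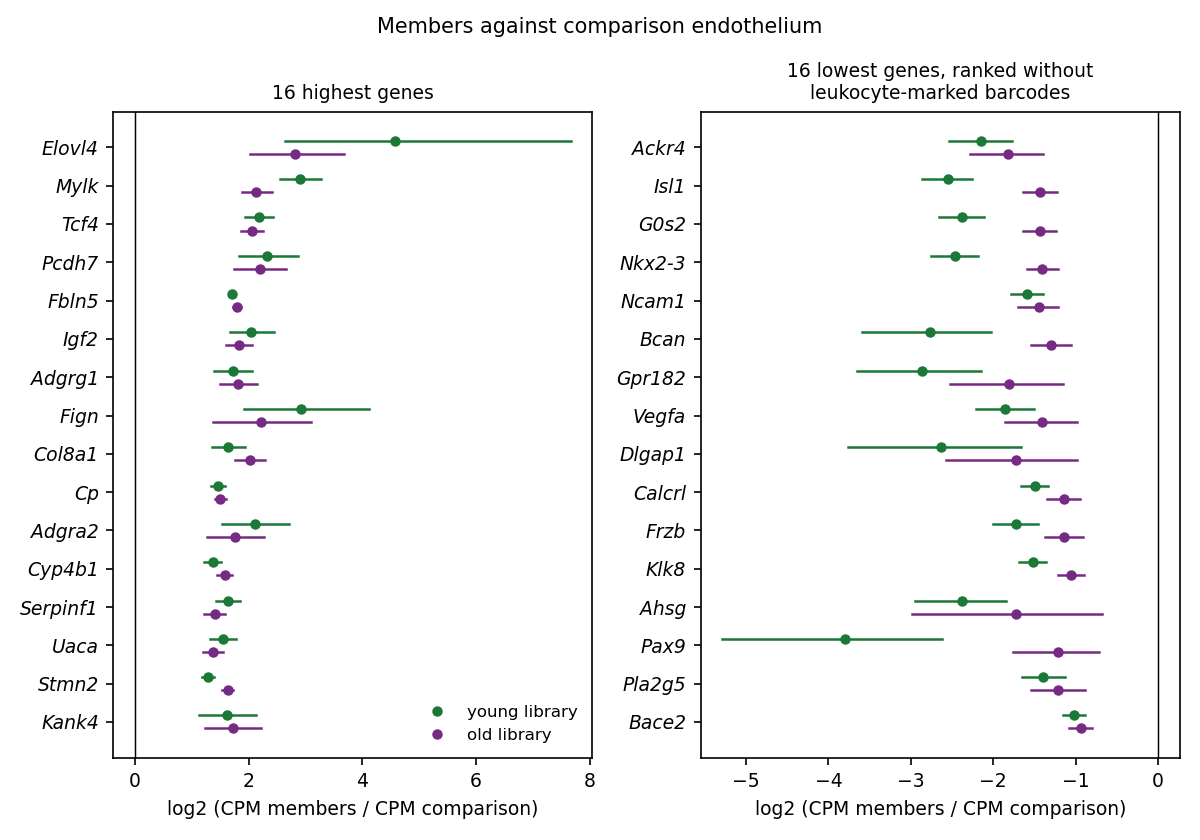
Log2 ratio of CPM in Coch-Sost-Adra2a endothelium over comparison endothelium (horizontal axis) for the 16 highest genes (left) and for the 16 lowest genes as ranked without barcodes that hold 2 or more leukocyte markers (right, values plotted with all barcodes). Points are 1 library each and lines are exact 95% counting intervals. Every interval lies on 1 side of 0, which the ranking by interval bounds selects for. Isl1, Nkx2-3 and Pax9 lie further below 0 in the young library than in the old.

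The 12 lowest genes of the fixed ranking were Lyz1, Mgl2, Retnla, Lyz2, Clec4b1, Lpl, Tnip3, Lgals3, Cd52, Cxcl2, Ccl9 and Rgs1, and all 12 are marked as possible free RNA. Lyz2, the lysozyme of macrophages, had 24.97 against 227 CPM in young and 47.9 against 288 CPM in old, and 4078 and 5603 CPM in barcodes with leukocyte markers. Retnla had 17.6 against 812 CPM in young and 67.4 against 403 CPM in old, and 64.97% of the young comparison UMIs came from 1 barcode. These ratios moved with a small number of barcodes. Of the comparison endothelium 8 of 570 young and 116 of 1673 old barcodes held 2 or more of 6 leukocyte markers, and of the members 5 of 432 and 29 of 521. Without those barcodes the ratio of Lyz2 was -0.17 and -0.09 and that of Retnla -0.21 and -0.21. This exclusion was chosen after the ratios had been seen.

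The macrophage and leukocyte marker lists moved with the same barcodes. Of 8 measured of 10 listed macrophage markers 8 were lower, with a median of -2.41 and -2.28, and of -0.17 and -0.09 without those barcodes. The 6 leukocyte markers summed to 19.04 and 63.8 CPM in members and 126 and 257 CPM in the comparison endothelium, and all 6 were lower (median -3.01 and -1.99). Without those barcodes that median turned to 1.52 and 0.17, which the exclusion by the same 6 genes in part sets. Of 3 measured of 10 listed lymphocyte markers Cd3d and Cd3g were lower (median -2.26 and -1.34), with 0.10 in old without the 5% of barcodes with most UMIs. MHC class II genes, which present antigen, were lower with and without those barcodes. Of 6 measured of 7 listed 6 were lower, with a median of -2.74 and -1.29, and of -1.36 and -1.0 without them. Cd74, the class II invariant chain, had 25.4 against 429 CPM in young and 412 against 1420 CPM in old, a ratio of -4.08 and -1.78, and of -1.59 and -1.23 without them. In barcodes with fibroblast markers Cd74 had 4.40 and 335 CPM. The level of old members thus lay near that of old barcodes with fibroblast markers, and the part of free RNA in it was not tested.

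Without those barcodes and without genes marked as possible free RNA, the 16 lowest genes were Ackr4, Isl1, G0s2, Nkx2-3, Ncam1, Bcan, Gpr182, Vegfa, Dlgap1, Calcrl, Frzb, Klk8, Ahsg, Pax9, Pla2g5 and Bace2, a ranking chosen after the values were seen. The values that follow are from all barcodes. Ackr4, an atypical chemokine receptor that scavenges its ligands, had 15.2 against 67.6 CPM in young and 14.5 against 51.3 CPM in old (-2.15 and -1.82). Nkx2-3, a homeobox factor, had 26.2 against 145 CPM in young and 77.1 against 204 CPM in old (-2.46 and -1.40). Pax9, a paired-box factor, had 6 against 85 UMIs in young and 37 against 250 in old. Both factors stood further below the comparison endothelium in young than in old. Ncam1, an adhesion molecule, had 62.2 against 187 CPM in young and 46.7 against 127 CPM in old (-1.59 and -1.45). Calcrl, the receptor for adrenomedullin and calcitonin gene-related peptide, had 89.5 against 252 CPM in young and 73.3 against 162 CPM in old (-1.50 and -1.15). The receptor Gpr182 had ratios of -2.86 and -1.80, the lipolysis inhibitor G0s2 -2.38 and -1.43, and the vascular growth factor Vegfa -1.85 and -1.40. The synaptic scaffold gene Dlgap1 had -2.63 and -1.73 and Ahsg, which encodes fetuin-A, -2.38 and -1.73, with 0.68 in young among barcodes with no smooth muscle or fibroblast marker. Klk8, a serine protease, Pla2g5, a secreted phospholipase, and Bace2, an aspartyl protease, had ratios from -1.52 to -0.94.

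Bcan, Isl1 and Frzb were listed as genes of other regional endothelium, and all 3 were lower in the members. Isl1, a LIM homeobox factor, had 22.9 against 134 CPM in young and 63.8 against 172 CPM in old, a ratio of -2.55 (-2.86 to -2.26) in young and -1.43 (-1.64 to -1.22) in old. Bcan, the proteoglycan brevican, had 3.60 against 24.5 CPM in young and 48.2 against 118 CPM in old (-2.77 and -1.29). Frzb, a secreted Wnt antagonist, had 31.3 against 104 CPM in young and 52.6 against 116 CPM in old (-1.73 and -1.14). The genes were not mutually exclusive with the score genes in these counts. At 3000 UMIs a transcript of any of the 3 was found in 14.8% of young members and 49.3% of young comparison endothelium, and in 33.4% and 63.01% in old. At full depth these shares were 32.6% and 70.7% in young and 49.1% and 74.4% in old. For Isl1 alone the share at 3000 UMIs was 6.91% of young and 15.4% of old members, against 0.893% and 3.46% of barcodes with fibroblast markers.

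Levels moved in steps with the score. Fbln5 went from 663 CPM in young barcodes at a score of 0 to 4026 CPM in the 52 young barcodes at 20 or more, and from 336 to 2233 CPM (29 barcodes) in old. Isl1 went the other way, from 149.9 to 7.77 CPM in young and from 171 to 6.51 CPM in old. Mylk went from 14.4 to 132 CPM in young, with 144 CPM from 10 to under 20, and from 19.1 to 149.7 CPM in old. The endothelial cadherin Cdh5 changed far less, from 387 to 455 CPM and from 359 to 436 CPM. Depth was lowest at a score of 0 in both libraries and did not rise steadily above it. Over the 6 bins the median was 5715, 9364.5, 6324, 8725, 9003 and 7358.5 UMIs in young. In old it was 3947.5, 7807, 5273, 5603, 5633.5 and 4751 UMIs. Every cell was also thinned to 3000 UMIs and the groups were chosen again from the thinned counts. The ratio of members over comparison endothelium was then 1.54 and 1.64 for Fbln5 and -2.15 and -1.24 for Isl1. All ratios and medians at 3000 UMIs use groups chosen again in this way, so some barcodes changed group.

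**Figure D3:**
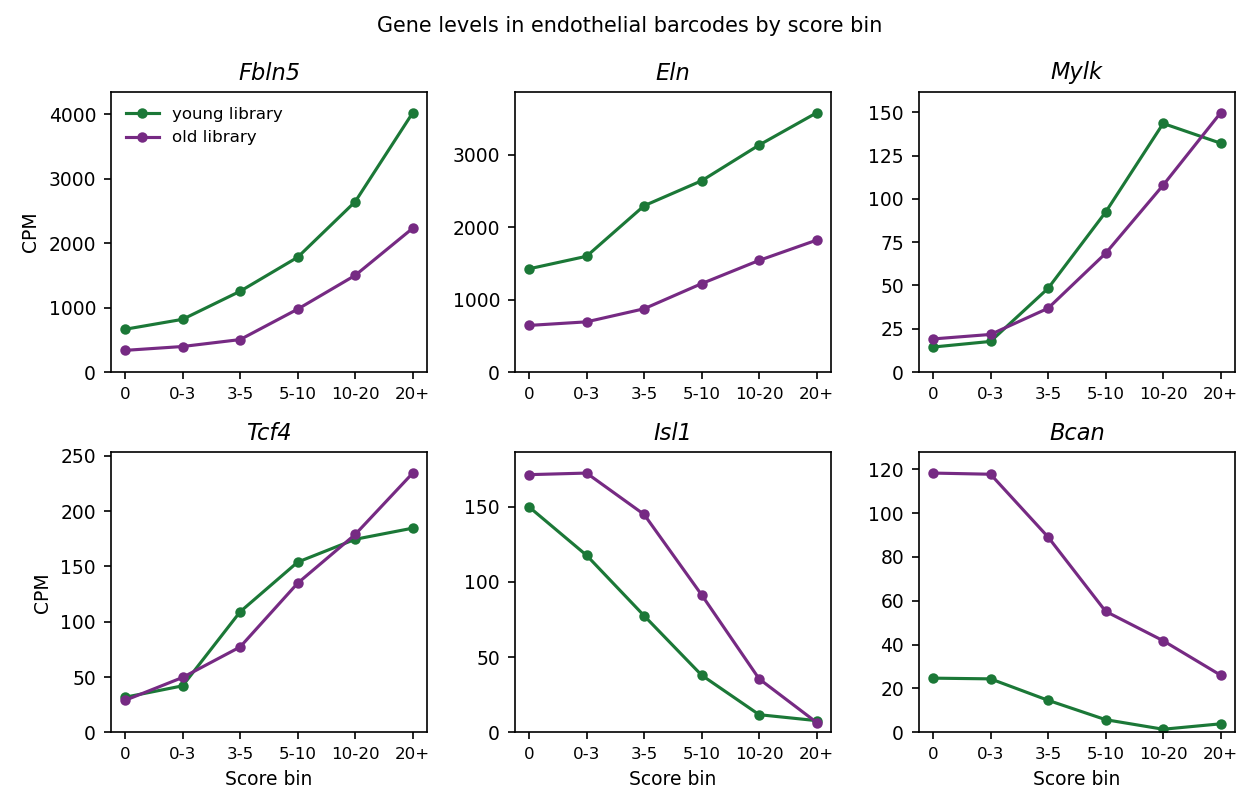
CPM of 6 genes (vertical axes, from 0) in endothelial barcodes grouped by score (horizontal axes, 6 bins); points are the summed UMIs of 1 library each. Fbln5, Eln, Mylk and Tcf4 have higher and Isl1 and Bcan lower values at high than at low scores, and the young line lies above the old for Fbln5 and Eln and below it for Bcan in every bin.

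Hox genes, which record position along the body axis, had mostly positive ratios. Of 52 listed names 39 were in the counts and 18 were measured. Of these 18, 6 were higher (Hoxa7, Hoxa9, Hoxb5, Hoxb8, Hoxb9 and Hoxd9) and 0 lower, with a median of 0.52 and 0.51. Over all genes measured in the same way 2.01% were higher and 3.44% lower. Hoxa9 had 75.8 against 45.97 CPM in young and 79.2 against 40.99 CPM in old (0.72 and 0.95). Hoxb9 had 76.8 against 41.2 CPM in young and 78.9 against 41.3 CPM in old (0.90 and 0.93). Both genes were at similar levels in young and old members. Hoxb2 showed no such shift, with -0.01 (-0.32 to 0.29) in young and -0.08 (-0.39 to 0.22) in old. Hoxa7 had 0.60 and 0.61, Hoxb5 0.74 and 0.73 and Hoxb8 0.83 and 0.62, and the rare Hoxd9 had 2.26 and 1.07. After thinning to 3000 UMIs the median was 0.53 in young and 0.44 in old.

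**Figure D4:**
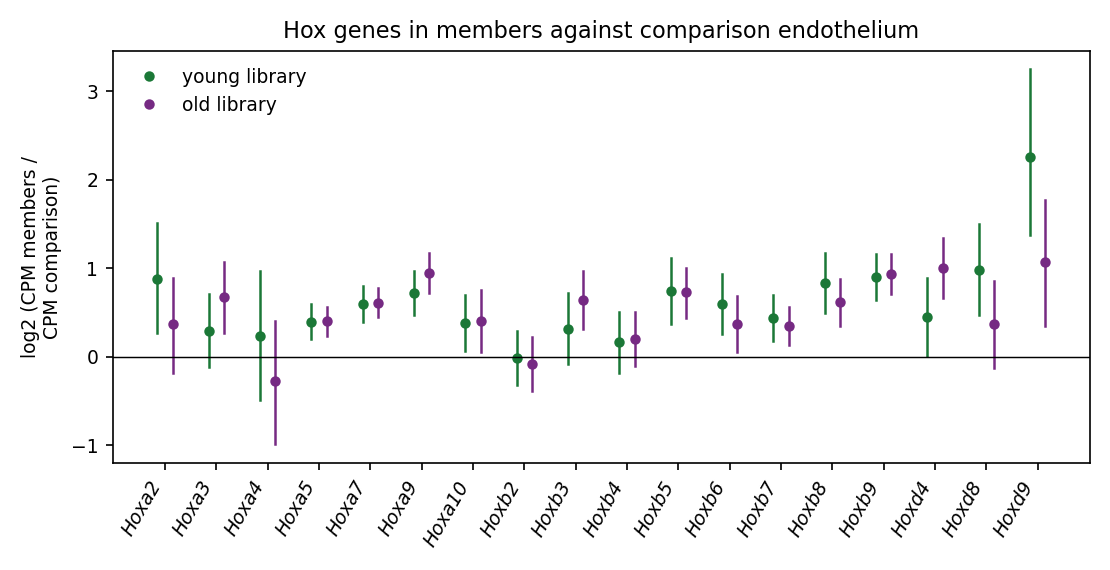
Log2 ratio of CPM in Coch-Sost-Adra2a endothelium over comparison endothelium for the 18 measured Hox genes; points are 1 library each and lines exact 95% counting intervals. Most points lie between 0 and 1, Hoxb2 lies near 0 and Hoxd9 has the highest value.

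Other transcription factors gave mixed results. Of 8 measured of 22 listed forkhead and T-box factors outside the score, Foxq1 was higher (2.56 and 1.54, 52 and 52 UMIs in members) and Tbx18 lower, with a median of -0.03 and -0.03. Sox17, an arterial endothelial factor, had 361 against 192 CPM in young and 264 against 169 CPM in old (0.91 and 0.65). It was the 1 higher gene of 27 measured of 41 listed other factors of endothelium and position, in which Nkx2-3, Isl1 and Eya1 (-1.98 and -0.81) were lower and the median was -0.08 and -0.02. The arterial and Notch list (20 measured of 22 listed) had 0 higher and 0 lower genes and a median of 0.15 and 0.16.

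Signalling genes were examined by role, since sclerostin acts on Wnt signalling and the alpha-2A receptor on G proteins. Of 6 measured of 15 listed Wnt antagonists other than Sost, 0 were higher and Frzb and Dkk3 lower, with a median of -0.65 and -0.35. Dkk3 had a ratio of -2.82 and -1.75, from 12 and 22 UMIs in members, is marked as possible free RNA, and turned to 0.16 in old among barcodes with no smooth muscle or fibroblast marker. Of 17 measured of 25 listed Wnt receptors, enhancers and targets, Lgr4 was higher and Fzd2, Fzd8 (-1.79 and -0.72) and Nkd1 (5 and 1 UMIs in members) lower, with a median of 0.17 and 0.03. Among G protein-coupled receptors and their regulators (24 measured of 40 listed), F2rl1, a protease-activated receptor, was higher (1.02 and 1.29), as was the rare Lpar4 (23 and 16 UMIs in members). Calcrl, its partners Ramp1 and Ramp3, and Rgs2, a brake on G protein signals, were lower, with a list median of -0.05 and 0.00. Ramp3 rested on 4 and 2 UMIs in members.

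A few vasoactive and haemostatic genes differed. Edn1, which encodes the vasoconstrictor endothelin-1, had 525 against 187 CPM in young and 241 against 129 CPM in old, a ratio of 1.49 (1.37 to 1.6) in young and 0.90 (0.78 to 1.03) in old. It was the 1 higher gene of 24 measured of 28 listed shear-responsive and vasoactive genes, and Cyp1b1 (-1.25 and -0.72), Kcnj2 (-1.80 and -0.96) and Gucy1a3 (-1.65 and -0.79) were lower, with a median of -0.14 and -0.07. Nt5e, the ectonucleotidase that makes adenosine, had 139.9 against 49.7 CPM in young and 76.2 against 34.7 CPM in old (1.49 and 1.14). Plat, the tissue plasminogen activator, had 35.8 against 149 CPM in young and 71.2 against 199 CPM in old (-2.06 and -1.48), but barcodes with fibroblast markers held 316 and 224 CPM. The anticoagulant genes Procr (-0.84 and -0.71) and Tfpi (-1.01 and -0.78) and the nucleotidase Entpd1 (-0.70 and -0.68) were lower too. Of 15 measured of 19 listed haemostasis genes 1 was thus higher and 4 were lower, with a median of -0.11 and -0.10.

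Growth factor and matrix lists were mixed. Bmp4, a bone morphogenetic protein, had 1042 against 615 CPM in young and 711 against 471 CPM in old (0.76 and 0.59), and was the 1 higher gene of 26 measured of 34 listed BMP and TGF-beta genes, with Tgfbi lower and a median of 0.04 and -0.07. Of 24 measured of 33 listed VEGF, angiopoietin and guidance genes, the guidance receptor Robo4 (2.54 and 2.30) and the growth factor Pdgfb (0.78 and 1.09) were higher and Vegfa lower, with a median of 0.03 and 0.17. Of 15 measured of 23 listed IGF and growth factor genes, Igf2 and Egfl8 were higher and Igfbp5, Igfbp7 and Ereg lower, with a median of -0.23 and -0.27. These lists thus held single members that stood apart. The basement membrane collagens Col4a1 (0.79 and 0.65) and Col4a2 (1.10 and 0.76, but -0.0259 in young among barcodes with no smooth muscle or fibroblast marker) were higher with Col8a1, whereas Col4a5 (-2.73 and -1.21) and Col4a6 were lower, among 18 measured of 23 listed with a median of -0.05 and 0.03. Of 24 measured of 35 listed matrix glycoproteins and proteoglycans 0 were higher, and Thbs2, Spock2, Abi3bp (-1.34 and -0.67) and Aspn were lower, with a median of -0.35 and -0.30.

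Plvap, which forms the diaphragms of endothelial fenestrae, had 188 against 405 CPM in young and 258 against 476 CPM in old (-1.11 and -0.88). It was the 1 lower gene of 16 measured of 24 listed junction and barrier genes, beside the higher Cldn5, with a median of 0.11 and 0.13. Of 4 measured of 9 listed valve and endocardial markers Tmem100 and Plvap were lower (median -0.87 and -0.60). Venous (4 measured of 7 listed) and lymphatic markers (4 measured of 8 listed) had 0 higher and 0 lower genes, with medians of -0.02 and 0.23 and of -0.28 and 0.15, the young lymphatic one being 2.72 at 3000 UMIs per cell. Of 12 measured of 16 listed fatty acid and capillary genes, Timp4 was higher (1.38 and 1.90) and Cd36, Fabp4, Lpl, Rgcc and Slc27a3 were lower, with a median of -1.31 and -0.49. That median was -0.23 and -0.13 without barcodes with 2 or more leukocyte markers, and turned to 0.0743 and 0.0915 at 3000 UMIs per cell. Aldh1a2, a retinoic acid synthase marked as possible free RNA, had 2 against 37 UMIs in young and 63 against 600 in old. It was the 1 lower gene of 9 measured of 18 listed retinoic acid genes, whose median was 0.13 and 0.09.

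The remaining lists covered other states and cell types. Of 17 measured of 22 listed cell cycle genes Mki67, Top2a, Birc5, Ube2c and Cdkn1a were lower (median -0.46 and -0.22), but Top2a, a mitotic topoisomerase, was found in only 3 young and 2 old members and 6 and 13 comparison barcodes. At 3000 UMIs per cell Mki67 (0.27) and Birc5 (0.53) turned in old and Ube2c (1.26) in young, and the young median was -0.01. The MHC class I list (15 measured of 15 listed) had 0 higher and 0 lower genes (median -0.03 and -0.07), and of 29 measured of 30 listed interferon-stimulated genes Ifi27l2a was lower (median 0.10 and -0.10). Of 16 measured of 23 listed leukocyte adhesion and chemokine genes, Ccl2, Ccl7, Cxcl2 and Cd34 were lower (median -0.02 and -0.04), but Cxcl2 turned to 0.38 in old without barcodes with 2 or more leukocyte markers and to 0.47 in young against barcodes at a score of 0. Immediate early genes had 0 higher and Ier5 and Nr4a2 lower of 22 measured of 26 listed (median -0.25 and -0.40). Smooth muscle (3 measured of 7 listed), pericyte (1 measured of 7 listed) and mesothelial markers (1 measured of 6 listed) had 0 higher and 0 lower genes, with medians of 0.29 and -0.03, of 0.00 and 0.07 and of 0.31 and -0.07. Of 2 measured of 7 listed Schwann and neural markers S100b was lower (median -0.65 and -0.74), and of 5 measured of 9 listed erythroid and platelet markers Pf4 was lower, with medians of opposite sign (4.65 and -3.72).

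Between ages, 853 of the 9989 genes (8.54%) were at least 1.5-fold higher in old than in young members and 604 (6.05%) lower, beside 536 (5.37%) and 552 (5.53%) in the comparison endothelium. Each is a ratio of 1 library over 1 library. From here a pair of ratios gives log2 of old over young in members and then in the comparison endothelium. Over genes with at least 20 UMIs in each library the medians were 0.07 and 0.04.

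Levels of the score genes in members are in part fixed by the threshold. Adra2a, Tbx1 and Foxf2 were at similar levels in both libraries, and Coch and Sost were lower in old. In members the ratio was -0.08 (-0.16 to 0.01) for Adra2a, -0.48 (-0.61 to -0.35) for Coch, -0.42 (-0.58 to -0.26) for Sost, -0.01 for Tbx1 and -0.17 for Foxf2. The intervals of Coch and Sost lay below 0. By the levels given above, Coch was also lower in old than in young comparison endothelium, whereas Sost was not. Fbln5 was lower in the old library in both groups of endothelium, with -0.94 (-0.99 to -0.89) in members and -1.03 (-1.10 to -0.96) in the comparison endothelium, and Eln had -1.10 and -1.18. Fbln5 and Eln were thus higher in members than in comparison endothelium at both ages, on a lower base in the old library. Edn1 had -1.12 (-1.24 to -1.01) and -0.54 (-0.66 to -0.41), Mylk -0.43 and 0.34 and Bmp4 -0.55 and -0.38.

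Isl1, Bcan, Nkx2-3 and Pax9, which were low in members, were higher in old than in young members. The ratio of Isl1 was 1.48 (1.14 to 1.83) in members and 0.36 (0.23 to 0.49) in the comparison endothelium. Bcan had 3.74 (3.02 to 4.56) and 2.27 (1.99 to 2.55), Nkx2-3 1.56 and 0.50 and Pax9 3.11 and 0.52. Frzb had 0.75 and 0.16, but -0.98 in members among barcodes with no smooth muscle or fibroblast marker. From a score of 5 to under 10 young cells held 37.99 CPM of Isl1 and old cells 91.4 CPM, and from 10 to under 20 they held 11.7 and 35.5 CPM. At 20 or more they held 7.77 and 6.51 CPM, levels too low in 52 young and 29 old barcodes to settle the direction. In those same barcodes the old level was the higher one for Bcan (3.89 young, 26.0 old) and for Frzb (31.1 young, 45.6 old). These levels rest on the same few barcodes, so for Bcan and Frzb too the direction at 20 or more is not settled. The ratio of Isl1 in members was 1.24 at a score of 8 or more, 1.2 at 3000 UMIs per cell and 0.77 among barcodes with no smooth muscle or fibroblast marker. Barcodes with fibroblast markers held 2.44 and 10.4 CPM of Isl1, and the part of free RNA in this difference was not tested.

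**Figure D5:**
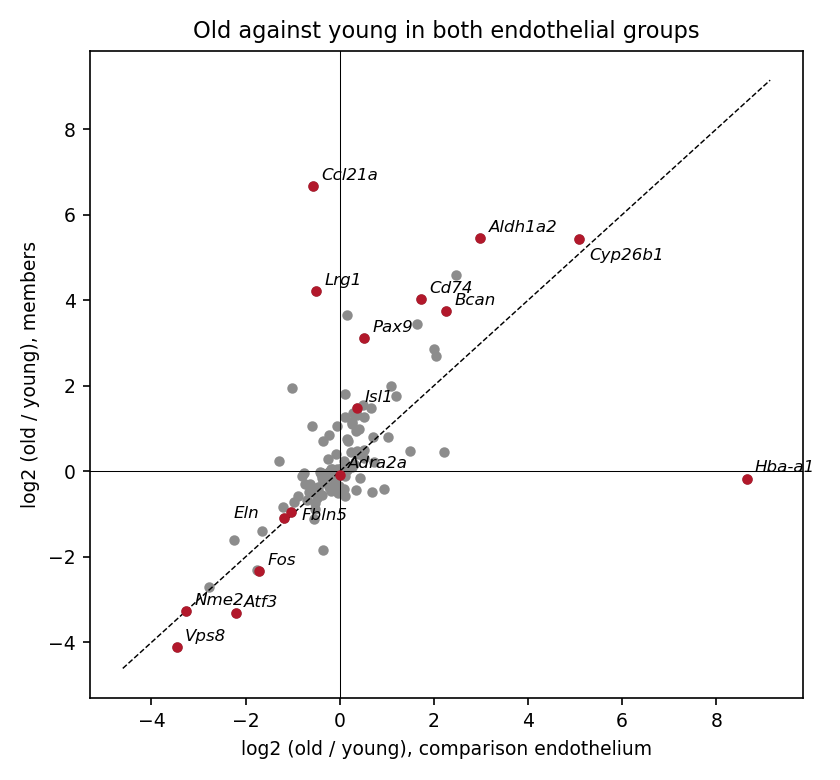
Log2 ratio of old over young in comparison endothelium (horizontal axis) and in Coch-Sost-Adra2a endothelium (vertical axis) for the 117 genes of the text with a ratio in both groups; each point is 1 gene, red points are labelled, and the dashed line marks equal ratios. Fbln5, Eln and Nme2 lie near the line, Isl1, Bcan, Pax9, Cd74 and Ccl21a above it, and Hba-a1 far to the right.

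The 8 genes with the highest ratio in members were Ccl21a, Cyp26b1, Cd74, Ccl4, Aldh1a2, Klk1b21, Rspo1 and H2-Eb1. Cyp26b1, which breaks down retinoic acid, had 3 UMIs in young and 92 in old members, a ratio of 5.42 (3.83 to 7.72), and 5.09 in the comparison endothelium. Aldh1a2, which makes retinoic acid, had 2 and 63 UMIs, a ratio of 5.46 (3.55 to 8.54), and 2.99 in the comparison endothelium. Genes for both the making and the breakdown of retinoic acid were thus higher in old members, while of the 9 measured retinoic acid genes 2 were higher and 0 lower beside 9.21% and 7.56% of all genes measured in the same way. Cd74 had 4.02 (3.75 to 4.30) and 1.73 (1.66 to 1.79), and H2-Eb1 3.43 and 1.64. Without barcodes with 2 or more leukocyte markers Cd74 had 4.01 and 3.65, and H2-Eb1 3.44 and 2.93. The gap between members and comparison endothelium was thus far smaller without those barcodes. The part of free RNA in these class II ratios was not tested, and Cd74 went from 4.40 to 335 CPM in barcodes with fibroblast markers. Klk1b21, a kallikrein that shares 35.7% of its 3′ stretches with related genes, had 5 and 86 UMIs. The Wnt enhancer Rspo1 had 0 and 24 UMIs and the chemokine Ccl4 0 and 37. Ccl21a had 4 UMIs in young members and 291 in old members, 40.5% of them from 1 barcode, and 75.8% of its 3′ stretches are shared with near-identical copies.

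Among the 8 genes with the lowest ratio in members were Vps8, P4ha3, Atf3, Nme2, Fos, Fosb and Btg3, and all of those named were also lower in old comparison endothelium. Vps8, a vesicle tethering gene, had 245 CPM in young members and 14.2 in old members, a ratio of -4.11 (-4.56 to -3.69), against -3.46 in the comparison endothelium. P4ha3, a collagen prolyl hydroxylase, had 79 UMIs in young members and 1 in old members. Fos, an AP-1 factor induced rapidly by stimuli and by handling, went from 859 to 171 CPM in members and from 883 to 269 CPM in the comparison endothelium (-2.33 and -1.72). Fosb had -2.31 and -1.76 and Atf3 -3.31 and -2.21. Of the 22 measured immediate early genes 16 were lower in old members and 17 in old comparison endothelium and 0 were higher in either, with medians of -1.2 and -1.10. In the comparison endothelium 6.73% of all genes measured in the same way were lower and 5.81% higher. Nme2 (-3.26) and Btg3 (-2.70) share 98.9% and 28.6% of their 3′ stretches with other gene models, so their values are uncertain.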

How the data were processed

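Droplet libraries of mouse aortic endothelium, 1 young and 1 old, were analysed from the whole-number UMI counts that the authors deposited, which are not normalized. Cell Ranger and GRCm38 are named per the submitters' processing notes, without versions. The members and the gene lists were chosen with earlier results of these data known.

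Barcodes were classed by the marker rule given above, and 1 young and 72 old barcodes failed the cell filter. No doublet caller was run, and leaving out the 5% of barcodes with most UMIs was an alternative. UMIs were added up over the cells of each group in each library and divided by that group's total (CPM). Log2 ratios carry exact conditional binomial 95% intervals and shares exact Clopper-Pearson intervals; both cover counting error only. With 1 library per age no test was made. Genes with at least 100 UMIs were ranked by the interval bound nearest to 0, taking the weaker library: the 16 highest and 12 lowest in members and 8 each way between ages. Mitochondrial, ribosomal, haemoglobin, unnamed and sex-linked genes were left out of the ranking, and 1 of the ranked genes is not reported here. The 40 lists count genes with at least 20 UMIs in each library, and their extreme members and those past 1.5-fold are named. Counts were simulated with Poisson error for young members against comparison endothelium (8045 genes). Intervals held the true value for 95.8% of genes. Of genes drawn 2-fold higher 99% were called, and of those drawn 2-fold lower 100%, beside 0.599% of unchanged genes. The intervals assume the same error, so this checks the code only, and not counts that gather in few barcodes.

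Gene positions are from GENCODE and promoters from RefSeq, both on GRCm38. Sharing of 3′ sequence is the share of 50-base stretches of the last 500 bases that occur in another gene. Alternatives were other thresholds, filters, depths and scalings. The software was scipy 1.17.1 with numpy 2.4.6 and pandas 2.3.3 under Python 3.11.15, and matplotlib 3.10.9.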

Additional observations from a re-analysis of the deposited data

Results flagged for a closer look

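Ccl21a, a chemokine of lymphatic endothelium, had opposite ratios of members over comparison endothelium in the libraries, at -3.65 in young and 3.59 in old (4 against 51 UMIs in young and 291 against 70 in old). Its ratio of old over young was 6.67 in members and -0.58 in the comparison endothelium. At 3000 UMIs per cell, with the groups chosen again, the young ratio was 5.01, so the libraries were then no longer opposite. A single barcode held 40.5% of the old member UMIs.

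Lrg1, a secreted glycoprotein, had ratios of -3.15 in young and 1.57 in old, from 4 against 36 UMIs in young and 53 against 52 in old.

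Hba-a1, an alpha globin, had ratios of 4.88 in young and -3.94 in old, and 94.8% of its UMIs in young members came from 1 barcode. It shares 91.1% of its 3′ stretches with Hba-a2. The old comparison endothelium held 16361 UMIs of it in 752 barcodes. None of these differences was tested, since each age has 1 library.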

How the results depend on the processing

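No paired analysis was possible because each age has 1 library. Members were 42.8% and 25.6% of young and old endothelial barcodes at a score of 4 or more, 29.6% and 12.9% at 8 or more, 33.6% and 16.7% among barcodes with no smooth muscle or fibroblast marker, 19.1% and 8.41% with Adra2a left out of the score, 34.1% and 18.1% without Coch and 34.8% and 18.4% without Sost. The old share alone moved to 17.4% with at least 3 score UMIs, 19.4% without Tbx1 and 23.3% at 3000 UMIs per cell. The young share was above the old under each alternative run.

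Genes higher and lower in members in both libraries numbered 55 and 136 at 2-fold, 301 and 705 from 20 UMIs, 54 and 63 in barcodes with no smooth muscle or fibroblast marker and 103 and 121 at 3000 UMIs per cell. In the first 3 of these settings, 253 and 220, 1593 and 1146 and 520 and 364 genes were higher and lower in old members, and 160 and 184, 1219 and 1031 and 309 and 315 in old comparison endothelium. A larger fold, a lower minimum and fewer cells or UMIs enter by construction.

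Of 3554 gene ratios under alternatives 479 left their counting interval beside the 16 that changed sign from a value past 1.5-fold with its interval clear of 0. In all 57 changed sign. Of 2757 list medians 194 changed sign, 10 of them from a median past 1.5-fold. The turns from such values follow. In barcodes with no smooth muscle or fibroblast marker the ratio over comparison endothelium turned for Ahsg (0.68), Col4a2 (-0.0259) and Kank4 (-0.54) in young and Dkk3 (0.16) in old, and between ages in members for Frzb (-0.98) and the median of Bcan, Isl1 and Frzb (-0.10). At 3000 UMIs it turned for Birc5 (0.53) and Mki67 (0.27) in old and for Ccl21a (5.01), Ramp3 (0.26), Ube2c (1.26) and the medians of erythroid (-0.12) and fatty acid genes (0.0743) in young. Without barcodes with 2 or more leukocyte markers it turned for Ccl9 (0.81 young, 0.29 old), Cxcl2 (0.38 old), Rgs1 (1.10 old) and the leukocyte median (1.52 young, 0.17 old, -0.58 between ages in members). Without the 5% of barcodes with most UMIs it turned for Ccl9 (0.0667 young) and the medians of fatty acid genes (0.0455 young) and lymphocyte markers (0.10 old). Cxcl2 came to 0.47 in young against barcodes at a score of 0, and the lymphocyte median between ages to 0.38 in comparison endothelium with cells weighted equally and -0.0895 in members without Adra2a in the score. The cause was not tested. Medians of members over comparison endothelium 0.2 (log2) or more from 0 but within 1.5-fold also turned: at 3000 UMIs for lymphatic markers (2.72 young), matrix glycoproteins (0.017 young), fatty acid genes (0.0915 old) and IGF genes (0.00958 old), in barcodes with no smooth muscle or fibroblast marker for elastic fibre genes (0.349 old) and matrix glycoproteins (0.0496 young, 0.0462 old), and without Coch in the score for smooth muscle markers (-0.027 young). Leaving out the 11 shared barcodes turned no median or ratio past 1.5-fold. The settings on leukocyte markers, shared barcodes and equal weights were chosen after seeing the data.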
